A study of Mus musculus with 20 samples.

Results

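Autosomal gene expression was compared between male and female mice of an Fmr1 KO line, in hippocampus. The comparison set 5 male KO libraries against 5 female KO libraries and took the genes placed on chromosomes 1 to 19 that reached 0.5 FPKM in at least 5 of those 10 libraries. FPKM are fragments scaled to transcript length and library size. Of the 13256 protein-coding genes listed for the series, 12443 were members (93.9%), and 316 other autosomal genes stayed under the filter. The remaining tested genes lay on chromosome X (450), on chromosome Y (7), in the mitochondrial genome (13) and on unplaced scaffolds (14). The series also held 5 male and 5 female libraries of C57 mice, called WT here, in which the same contrast of sexes was made. All 20 libraries were made from hippocampus with one mRNA kit. The sample titles call the mutants KO and the genotype field calls them an Fmr1 knockdown. The labels state neither age, nor the kind of Fmr1 allele, nor whether each sample is a different animal. The p-values below therefore refer to the spread among samples within groups, which may be technical. In the gene fits (limma) that spread was pooled over the 4 groups of all 20 libraries.

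Fmr1 lies on the X chromosome and encodes FMRP, an RNA-binding protein that holds back the translation of many neuronal mRNAs. Its loss causes fragile X syndrome in humans, which affects males more severely, since they carry a single X. Autosomes are shared by both sexes, and sex-linked genes or gonadal steroids can still set their expression apart between the sexes. Most such autosomal differences in rodent hippocampus are small beside those of the X and Y genes.

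Fmr1, the targeted gene, was lower in both mutant groups but not absent. It averaged 3.56 ± 0.187 FPKM in male KO and 11.4 ± 0.527 FPKM in male WT, and 3.32 ± 0.327 FPKM in female KO and 10.6 ± 0.558 FPKM in female WT (SD, n = 5 each; exact two-sided permutation p = 0.0079 in each sex, the smallest that 5 against 5 samples allow). The Y-linked gene Ddx3y was at 12.96 FPKM or more in every male KO library and at 0.02 FPKM or less in every female KO library. Across genes, Pearson's r between 2 KO libraries was 0.981 to 0.990 on the log2 scale, and mitochondrial genes held 17.5% to 20.4% of the summed FPKM. Several libraries carried RNA of neighbouring tissue. Ttr, the transthyretin gene of choroid plexus, exceeded 500 FPKM in male KO replicate 2, in female KO replicates 4 and 5 and in female WT replicate 4. The pituitary hormone gene Prl exceeded 4 FPKM in female KO replicates 2, 3 and 4 and in no other library. FPKM do not give the number of reads, so depth is unknown.

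In KO hippocampus 689 of the 12443 autosomal genes differed between the sexes (5.54% of those tested; limma, adjusted p under 0.05), of which 282 were higher in males (2.27%) and 407 lower (3.27%). Before adjustment 2934 had p under 0.05 (23.6%). The differences were small. Their median size was 0.23 on the log2(FPKM + 1) scale, 266 of the 689 exceeded 0.25 and 21 exceeded 0.5. No gene reached 0.5 FPKM in every male KO library and none of the female ones. The reverse held for 2 genes, Fbxl7 and Tm6sf2, named after their values were seen, whose levels lay on either side of the filter (for Fbxl7 0.40 ± 0.071 FPKM in male KO and 0.60 ± 0.045 FPKM in female KO, and for Tm6sf2 0.36 ± 0.11 FPKM in male KO and 0.62 ± 0.036 FPKM in female KO; SD, n = 5 each). The filter let these 2 genes in through the 5 female KO libraries alone, so their split at 0.5 FPKM is a description. Both are among the 407. In 517 of the 689 genes the 5 male KO values did not overlap the 5 female KO values, against 1010 of all 12443 (8.12%), a measure taken from the same libraries as the calls. With libraries rescaled by their upper quartile, 766 genes passed and 55.0% of them were higher in males, against 40.9% as deposited. The count varied when single libraries were left out: it was 158 without male KO replicate 1, 241 without female KO replicate 3, 275 without female KO replicate 5, 324 without male KO replicate 2, 342 without female KO replicate 2, 347 without male KO replicate 4 and 426 without female KO replicate 4. It changed less without male KO replicate 3 (535), male KO replicate 5 (611) or female KO replicate 1 (665). It was 62 without the 4 libraries over 500 FPKM of Ttr, and 17 without the 3 over 4 FPKM of Prl, which leaves 2 female KO libraries. The fit without the Ttr libraries lacks male KO replicate 2 and female KO replicates 4 and 5. Fewer libraries alone lower the count that can pass, and how much was not tested.

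**Figure D1:**
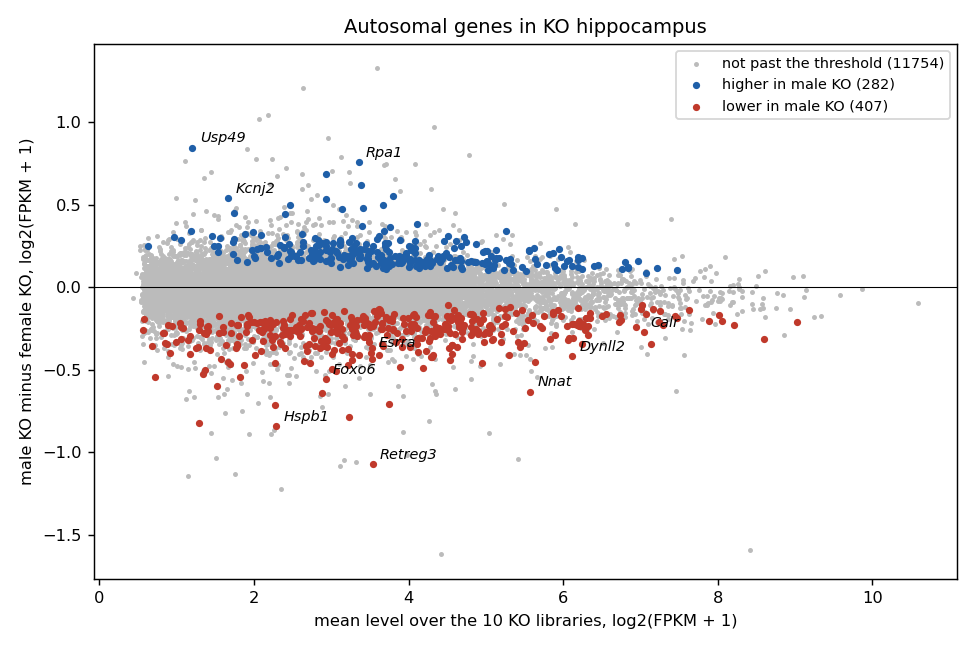
Difference between the sexes in KO against mean level. Each point is an autosomal gene, with the mean level over the 10 KO libraries on the x axis and the male KO minus female KO difference on the y axis, both in log2(FPKM + 1). Coloured points passed the threshold: 282 above 0 and 407 below 0.

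The sign of the difference followed the base composition of the transcript. Genes higher in male KO had a median GC content of 42.8% and genes lower in male KO 56.4%, against 49.9% over all tested autosomal genes. Their median transcript lengths were 4703 and 2537 bases, against 3473. Among the 10% of genes with the lowest GC content 102 were higher in male KO and 2 lower, and among the 10% with the highest GC content 0 were higher and 152 lower. The median difference went with it, at 0.08 in the lowest 10% and -0.13 in the highest. In each library, the deviation of every gene from its mean over the 20 libraries was set against GC content. The slope, per 10 percentage points of GC, ran from -0.067 to 0.0078 over the 5 male KO libraries and from 0.063 to 0.076 over the 5 female KO libraries. Means were -0.032 ± 0.032 in male KO and 0.068 ± 0.0063 in female KO (SD, n = 5 each; exact two-sided permutation p = 0.0079, the smallest possible). In WT the means were -0.041 ± 0.043 in males and 0.0047 ± 0.027 in females (SD, n = 5 each; exact two-sided permutation p = 0.079). After a smooth trend on GC content had been taken out of every library, 119 genes passed (0.956% of those tested), 36 higher (0.289%) and 83 lower (0.667%) in male KO, and 102 of these were among the 689. The called genes and lists below are therefore also given with that trend removed.

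**Figure D2:**
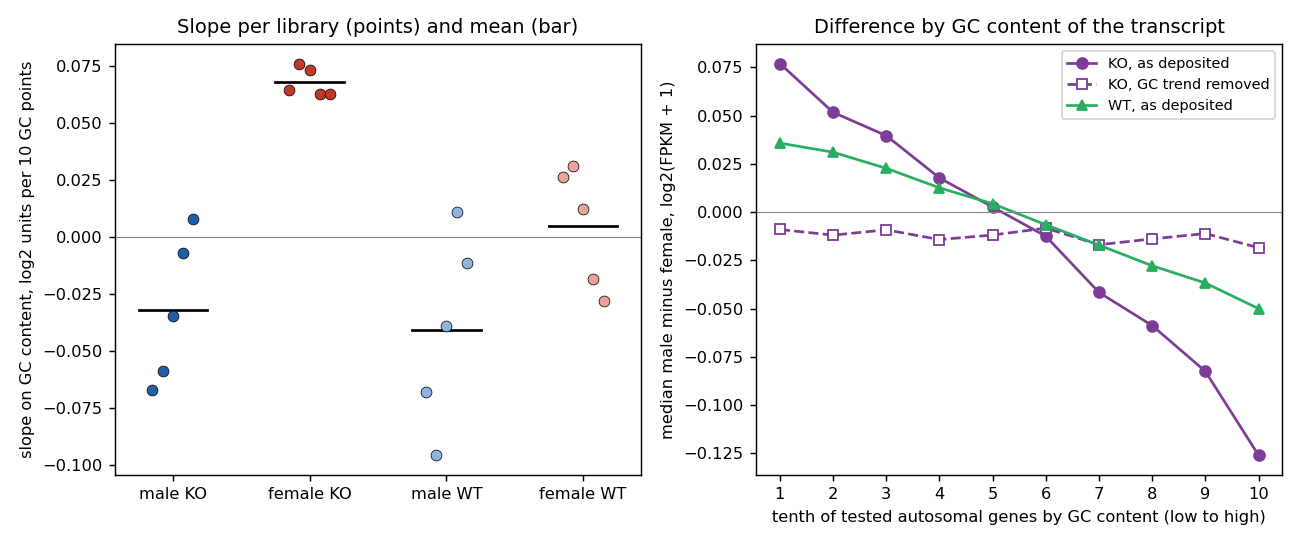
GC content and the difference between the sexes. Left, slope on transcript GC content, in log2 units per 10 percentage points, of each library's deviation from the mean of all 20 libraries (points; bar, group mean of 5): the 5 female KO libraries lie above the 15 others. Right, median male minus female difference in log2(FPKM + 1) in each of 10 equal bins of genes by GC content, in KO as deposited, in KO with the GC trend removed and in WT.

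Genes of protein folding formed the clearest group among the lists examined. Cells fold secreted and membrane proteins in the endoplasmic reticulum with lectin chaperones, HSP70 proteins and disulfide isomerases, and protect cytosolic proteins with heat shock proteins, many of which are induced when unfolded protein accumulates. Of 31 list members tested, 10 were lower in male KO and 0 higher, and 27 lay below 0. The list median was -0.22, against -0.01 over all tested genes, of which 3.27% were lower and 53.4% below 0. In bulk tissue, fewer cells of a type and less RNA per cell cannot be told apart. In WT the list median was -0.0037 and 0 members passed. With the GC trend removed 6 of the 10 still passed and the median was -0.18. The number lower was 6 without the Ttr libraries, 4 without the Prl libraries, and 6 to 12 when single KO libraries were left out, with medians from -0.26 to -0.18 over these settings.

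The endoplasmic reticulum members came first in this group. Calr, on chromosome 8 at 84841850 to 84846934 (mm10), encodes calreticulin, a calcium-binding lectin chaperone. It stood at 116, 122, 117, 118 and 119 FPKM in the 5 male KO libraries and at 140, 146, 147, 134 and 148 FPKM in the 5 female KO libraries, and the groups did not overlap. The difference was -0.27 ± 0.04 (SE; adjusted p = 0.000754), and female KO was also above male WT (114 ± 5.56 FPKM) and female WT (121 ± 4.63 FPKM; SD, n = 5 each). Pdia4, a protein disulfide isomerase, had 19.8, 22.6, 20.4, 19.1 and 17.0 FPKM in male KO and 27.2, 25.9, 25.7, 21.9 and 26.3 FPKM in female KO, which overlapped in 1 pair of libraries (-0.35 ± 0.06, adjusted p = 0.00801). Pdia6, of the same enzyme family, had 21.5, 24.1, 23.5, 20.8 and 20.5 FPKM in male KO and 28.7, 26.8, 27.4, 25.2 and 30.0 FPKM in female KO, without overlap (-0.31 ± 0.06, adjusted p = 0.00778). Calr, Pdia4 and Pdia6 passed in all 26 alternative fits. Sdf2l1, an endoplasmic reticulum protein that binds chaperone complexes, averaged 4.72 ± 0.690 FPKM in male KO and 7.98 ± 1.53 FPKM in female KO (-0.64 ± 0.14, adjusted p = 0.0178), and missed the threshold with the GC trend removed (adjusted p = 0.0506) and without male KO replicate 1 (-0.57, adjusted p = 0.051). Serpinh1, the collagen chaperone, averaged 5.89 ± 0.644 FPKM in male KO and 8.85 ± 1.57 FPKM in female KO (-0.50 ± 0.10, adjusted p = 0.0126), and did not pass without the Ttr libraries or without the Prl libraries. Other abundant members did not pass: Hsp90b1 had -0.07 (adjusted p = 0.338) and Canx, the partner of calreticulin, -0.01 (adjusted p = 0.876). Hspa5, the HSP70 of this compartment, was uneven, at 19.6 to 57.9 FPKM in male KO and 29.0 to 67.6 FPKM in female KO (-0.50, adjusted p = 0.313).

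The promoters of Calr and Pdia6 are shown because both hold a match to the endoplasmic reticulum stress element, the motif through which unfolded-protein sensors act on chaperone genes, and that of Hspa5 because it is the textbook carrier of this element. The windows are from RefSeq (GRCm38.p6), 300 bases around the annotated start on the gene's own strand, with the match in capitals. Calr lies at chr8:84846882-84847181 (minus strand), Pdia6 at chr12:17266339-17266638 (plus strand) and Hspa5 at chr2:34771840-34772139 (plus strand).
Calr: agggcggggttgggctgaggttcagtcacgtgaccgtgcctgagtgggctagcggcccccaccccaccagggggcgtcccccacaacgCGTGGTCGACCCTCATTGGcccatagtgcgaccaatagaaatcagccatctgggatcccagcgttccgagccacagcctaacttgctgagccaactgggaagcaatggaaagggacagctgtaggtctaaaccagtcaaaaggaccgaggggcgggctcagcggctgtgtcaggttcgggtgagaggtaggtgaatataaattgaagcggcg
Pdia6: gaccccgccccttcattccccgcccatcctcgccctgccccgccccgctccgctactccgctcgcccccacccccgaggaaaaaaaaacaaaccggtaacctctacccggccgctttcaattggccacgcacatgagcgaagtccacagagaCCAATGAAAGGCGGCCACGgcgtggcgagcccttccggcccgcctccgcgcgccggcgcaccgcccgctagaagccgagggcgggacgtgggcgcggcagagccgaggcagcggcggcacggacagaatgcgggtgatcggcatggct
Hspa5: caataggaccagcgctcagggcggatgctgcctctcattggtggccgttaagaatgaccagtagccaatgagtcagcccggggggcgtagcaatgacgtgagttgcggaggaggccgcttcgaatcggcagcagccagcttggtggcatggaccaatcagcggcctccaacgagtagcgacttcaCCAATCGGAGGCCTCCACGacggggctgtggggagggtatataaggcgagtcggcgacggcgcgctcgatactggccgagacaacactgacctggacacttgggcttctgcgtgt
The motif searched was CCAAT, then 9 bases of any kind, then CCACG, on both strands, and the Calr match is on the strand opposite to the gene. It was found for 15 of the 9868 tested autosomal gene symbols with a promoter in the table (0.152%), for 7 of 25 listed folding genes with one, and for 2 of the 10 that were lower in male KO. Canx, Creld2, Dnajc3, Hsp90b1 and Hspa5 were the other listed genes with it, and they did not pass the threshold. The list gathers known folding genes, many of them induced by unfolded protein. Its share was therefore not a test against all genes. The heat shock element, GAA, TTC and GAA each 2 bases apart, was found for 57 of the 9868 (0.578%), for 3 of the 25 and for 0 of the 10. Only exact matches within the 300 bases were counted. A site that departs from the motif or lies outside the window would be missed, so 0 matches does not mean that the genes lack such elements. The motifs were chosen after the values were seen, and a match is a description of these letters.

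Of the cytosolic heat shock genes, Hspb1, on chromosome 5 at 135887919 to 135889563, differed most. It encodes a small heat shock protein that binds unfolded proteins and actin. Male KO libraries held 2.12, 2.97, 2.67, 2.79 and 1.97 FPKM and female KO libraries 4.79, 6.59, 5.37, 4.93 and 4.67 FPKM. The groups were far apart, with male KO near male WT (2.85 ± 0.246 FPKM) and female KO above female WT (3.28 ± 0.650 FPKM; SD, n = 5 each). The difference in KO was -0.84 ± 0.11 (SE; adjusted p = 0.000362), or -0.72 with the GC trend removed, and Hspb1 also passed in all 26 alternative fits. The co-chaperone gene Dnajb1 was at 11.1 to 12.1 FPKM in male KO and 12.97 to 15.1 FPKM in female KO (-0.26 ± 0.06, adjusted p = 0.0179), while Bag3, another co-chaperone, had -0.22 (adjusted p = 0.0276). The inducible HSP70 genes Hspa1a (-0.34, adjusted p = 0.0341) and Hspa1b (-0.36, adjusted p = 0.0305) are near-identical neighbours whose reads may have been split between them. Bag3, Hspa1a and Hspa1b did not pass with the GC trend removed, nor in 4, 7 and 6 of the 10 fits that left out 1 KO library.

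Besides the folding genes Hspb1, Calr, Pdia6 and Pdia4, the genes that passed in all 26 alternative fits were Dynll2, Esrra and Tspan33, a set picked after the values were seen, and all 7 were lower in male KO. Dynll2, a light chain of dynein and myosin V motors, on chromosome 11 at 87979525 to 87987533, had the smallest p. It was at 58.7, 57.4, 56.8, 57.8 and 61.1 FPKM in male KO and at 74.1, 76.4, 80.5, 83.2 and 77.3 FPKM in female KO. These ranges lie well apart, with male WT (66.0 ± 5.40 FPKM) and female WT (69.2 ± 2.67 FPKM; SD, n = 5 each) between them. The difference was -0.42 ± 0.05 (SE; adjusted p = 7.73e-05), or -0.38 with the GC trend removed. Esrra encodes an orphan nuclear receptor related to the oestrogen receptors that drives genes of mitochondrial respiration. It stood at 9.06, 9.06, 8.45, 9.13 and 8.59 FPKM in male KO and at 12.9, 12.3, 11.4, 11.5 and 11.8 FPKM in female KO. Male KO lay near male WT (8.46 ± 0.694 FPKM) and female WT (8.84 ± 0.724 FPKM; SD, n = 5 each), and female KO was the group apart (difference in KO -0.40 ± 0.06, adjusted p = 0.0011). Another listed gene overlaps Esrra on the other strand. Tspan33, a tetraspanin that helps to bring the protease ADAM10 to the cell surface, was at 3.67 to 4.15 FPKM in male KO and 4.61 to 5.71 FPKM in female KO (-0.29 ± 0.05, adjusted p = 0.00567). It differed in the same direction in WT, by -0.21 (adjusted p = 0.16).

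**Figure D3:**
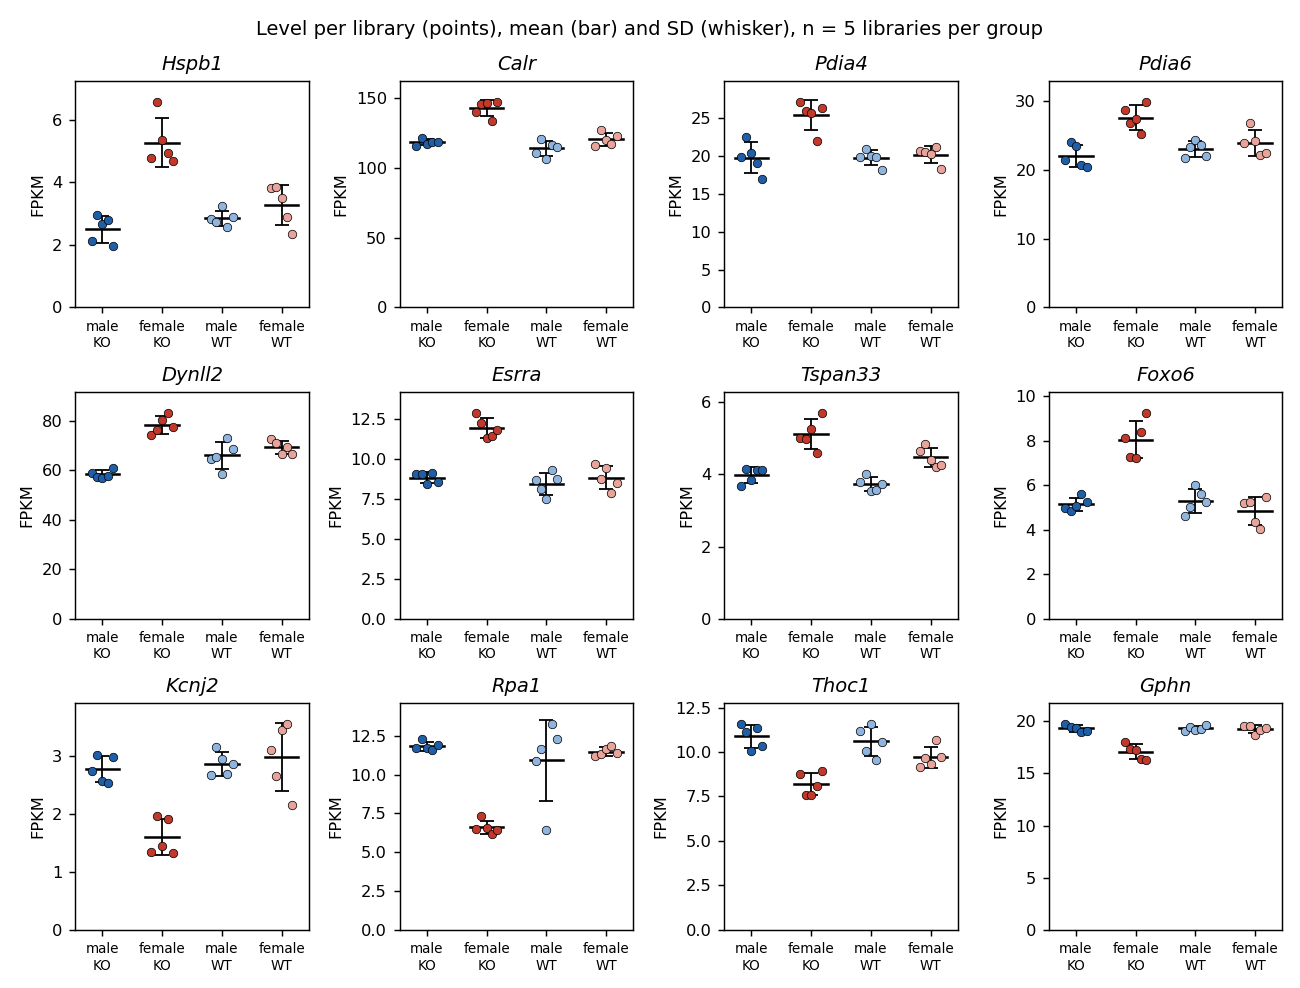
Levels of 12 genes in each library. FPKM on the y axis; points are libraries of male KO, female KO, male WT and female WT, bars are means and whiskers SD (n = 5 each). In Calr, Hspb1, Dynll2, Esrra and Foxo6 female KO lies above the other groups, and in Kcnj2, Thoc1 and Gphn below them.

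Foxo6, a forkhead transcription factor strong in hippocampus, was at 4.99, 4.84, 5.05, 5.61 and 5.25 FPKM in male KO and at 8.11, 7.26, 7.23, 8.41 and 9.26 FPKM in female KO. No male value came near the female ones, while WT males (5.30 ± 0.540 FPKM) and WT females (4.85 ± 0.630 FPKM; SD, n = 5 each) overlapped. Its difference in KO was -0.55 ± 0.08 (SE; adjusted p = 0.0011), and -0.34 (adjusted p = 0.0322) with the GC trend removed, its transcript being 69.1% GC. Kcnj2, an inward-rectifier potassium channel that holds the resting potential, ran the other way. It had 2.73, 3.02, 2.56, 2.54 and 2.98 FPKM in male KO and 1.35, 1.96, 1.45, 1.91 and 1.32 FPKM in female KO, without overlap (0.54 ± 0.09, adjusted p = 0.0056). Both WT groups were at the male KO level (2.86 ± 0.204 FPKM in males and 2.98 ± 0.581 FPKM in females). Both genes passed in every fit that left out 1 KO library, with the GC trend removed, without the Ttr or the Prl libraries and with Ttr and Prl as covariates.

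Of the 15 largest differences with the higher level in male KO, the first were those of Usp49, a deubiquitinase of histone H2B (0.85), Rpa1, a subunit of the single-strand DNA-binding complex RPA (0.76), Abi2 of the actin-regulating WAVE complex (0.69) and Myo6, a myosin that moves to the minus end of actin (0.62), followed by Kcnj2. Rpa1 stood at 11.7, 12.3, 11.7, 11.6 and 11.9 FPKM in male KO and at 6.49, 7.33, 6.55, 6.17 and 6.44 FPKM in female KO. It sat at these same 2 levels elsewhere: 4 male WT libraries and all 5 female WT libraries were at the upper level, and male WT replicate 3, at 6.45 FPKM, was at the lower one. Its difference of 0.76 ± 0.11 (SE; adjusted p = 0.00218) passed without each single KO library and with the GC trend removed, but not without the Ttr libraries (0.71) or the Prl libraries (0.78). Thoc1, of the THO complex that couples transcription to mRNA export, was at 10.1 to 11.6 FPKM in male KO and 7.57 to 8.95 FPKM in female KO (0.37 ± 0.06, adjusted p = 0.00292), also with the GC trend removed (adjusted p = 0.0181) but not without the Prl libraries. Thoc1 and Usp49 each overlap a listed gene on the other strand.

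The others of these 15 were Hsd11b1, which regenerates active glucocorticoid (0.54), the adaptor gene Plekha1 (0.50), the nucleolar gene Nolc1 (0.50), the phospholipid flippase gene Atp11b (0.48), Ank3 or ankyrin-G, the organiser of the axon initial segment (0.47), the protein kinase C gene Prkcd (0.45), the desmosome gene Dsp (0.44), the cold-inducible RNA-binding protein gene Cirbp (0.39) and the diacylglycerol kinase gene Dgkh (0.37). Of these only Cirbp kept its call with the GC trend removed (adjusted p = 0.0429). Each lost it in at least 3 of the 10 fits without 1 KO library, and so did Usp49, Abi2 and Myo6. Usp49 kept it in 2: it was at 1.59 to 2.24 FPKM in the 5 male KO libraries and at 0.408 to 0.416 FPKM in 4 female KO libraries, while female KO replicate 4 had 1.80 FPKM. In Hsd11b1 1 library of each sex lay toward the other sex: male KO replicate 4 at 5.74 FPKM against 8.31 to 8.86 FPKM in the other males, and female KO replicate 4 at 7.80 FPKM against 4.37 to 4.76 FPKM in the other females. Myo6 was at 8.39 to 13.8 FPKM in male KO and at 6.36 to 7.61 FPKM in female KO.

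The 15 largest differences with the lower level in male KO included Hspb1, Sdf2l1, Serpinh1 and Foxo6. Retreg3, a receptor for the autophagy of endoplasmic reticulum, led by size (-1.07 ± 0.30, adjusted p = 0.0423). It did so through 3 male KO libraries: the males had 3.11, 3.26, 14.5, 3.30 and 13.1 FPKM and the females 10.6, 15.8, 14.9, 13.9 and 13.6 FPKM. All 10 WT libraries were at the upper level, and the call was kept in 3 of the 10 fits without 1 KO library. Hist2h3c1, a histone H3 gene with near-identical copies that may share reads, was at 0.541 to 0.778 FPKM in male KO and at 3.24, 2.69, 2.97, 1.07 and 1.003 FPKM in female KO (-0.82, adjusted p = 0.0163), and it did not pass without the Prl libraries. Nnat, or neuronatin, an imprinted gene for a small membrane protein of the endoplasmic reticulum, was at 35.6, 35.2, 35.4, 35.9 and 39.7 FPKM in male KO and at 46.9, 56.1, 62.1, 59.8 and 60.3 FPKM in female KO. These ranges were separate, and the difference of -0.63 ± 0.12 (SE; adjusted p = 0.00778) passed without each single KO library and with the GC trend removed (-0.54, adjusted p = 0.0304). It did not pass without the Ttr libraries, without the Prl libraries or with Ttr and Prl as covariates. Nnat lies inside Blcap on the other strand, and Blcap was lower too (-0.17, adjusted p = 0.0444). The strand setting of the counting is not given in the sources used here, so that reads of the pair cannot be told apart.

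Col1a1, a chain of type I collagen, was at 0.932 to 1.21 FPKM in male KO and 1.45 to 2.72 FPKM in female KO (-0.52 ± 0.09, adjusted p = 0.00501), and passed with the GC trend removed (adjusted p = 0.0307). In WT it had 0.614 ± 0.0646 FPKM in males and 1.05 ± 0.179 FPKM in females (SD, n = 5 each), a difference of the same sign (-0.34, adjusted p = 0.192). Tmem176b, a membrane protein gene, also passed with the GC trend removed (-0.49, adjusted p = 0.0171 as deposited and 0.0471 without the trend), and its end overlaps Tmem176a on the other strand. Col1a1 and Tmem176b did not pass without the Ttr libraries or without the Prl libraries. The remaining genes were Cd59a, an inhibitor of complement (-0.71), Mgp, an inhibitor of vessel calcification (-0.70), the AT-hook gene Ahdc1 (-0.60), Dap (-0.54), Clec3b or tetranectin (-0.50) and the interferon-induced Ifi27 (-0.49). These 6 did not pass with the GC trend removed, and each lost its call in at least 5 of the 10 fits without 1 KO library. Mgp overlapped between the groups, at 5.95 to 11.05 FPKM in male KO and 9.04 to 22.2 FPKM in female KO.

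Collagen genes belong to the meninges and vessel walls more than to neurons. Of 10 meningeal fibroblast genes tested, all 10 lay below 0 in KO, against 53.4% of all tested genes (list median -0.36, also with the GC trend removed; WT median -0.27). In this list Col1a1, Foxc1, a transcription factor of meningeal development (-0.31, adjusted p = 0.0444), and Col1a2 (-0.40, adjusted p = 0.0446) were lower in male KO, which is 3 of 10 against 3.27% of all tested genes. Col1a1 alone passed with the GC trend removed, and 1 to 5 genes passed without single KO libraries. The summed level of the list ran from 129 to 199.5 FPKM in male KO and from 149 to 356 FPKM in female KO. Without the Ttr libraries, or without the Prl libraries, 0 of these genes passed (limma). Of 17 autosomal choroid plexus genes 7 passed the filter on level, all 7 below 0 and 0 past the threshold (limma). The 7 had a median difference of -0.58, or -0.61 with the GC trend removed, and of -0.13 in WT. Summed levels of the list ran from 46.5 to 702 FPKM in male KO and from 68.7 to 1711 FPKM in female KO. The median sums were closer, at 71.4 FPKM in male KO and 82.4 FPKM in female KO. All 4 haemoglobin genes lay below 0 (median -0.38, or -0.34 with the GC trend removed) and did not pass, and their sums were 342 to 584 FPKM in male KO and 430 to 671 FPKM in female KO. Of the pituitary list, Pomc alone passed the filter on level, at 0.205 to 0.585 FPKM in male KO and 0.508 to 17.2 FPKM in female KO (-1.13, adjusted p = 0.122). The part of such tissue in the other differences was not tested.

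Among neuronal groups, markers of dentate granule cells were on the higher side in male KO. Granule cells are the principal neurons of the dentate gyrus, where Prox1 fixes their identity. Of 13 markers tested, 4 were higher and 0 lower, and 11 lay above 0 (median 0.19; WT median -0.0074; 2.27% of all tested genes were higher). Tdo2, a tryptophan dioxygenase, had 0.30 (adjusted p = 0.0181), Stxbp6, a SNARE-binding protein gene, 0.28 (adjusted p = 0.0261), Prox1 0.28 (adjusted p = 0.0435) and Dsp 0.44 (adjusted p = 0.0446). Prox1 was at 18.3, 17.6, 17.8, 16.9 and 17.2 FPKM in male KO and at 16.2, 16.2, 11.6, 14.1 and 13.8 FPKM in female KO. The female values are lower and more spread, while both WT groups averaged 16.9 FPKM. Summed over the list, male KO had 141 to 149 FPKM, female KO 112 to 147 FPKM, male WT 142 to 155 FPKM and female WT 145 to 169.6 FPKM. With the GC trend removed, without the Ttr libraries, without the Prl libraries or with both genes as covariates, 0 of the 13 passed (limma), with medians of 0.11 to 0.17. Without single KO libraries 1 to 7 passed.

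**Figure D4:**
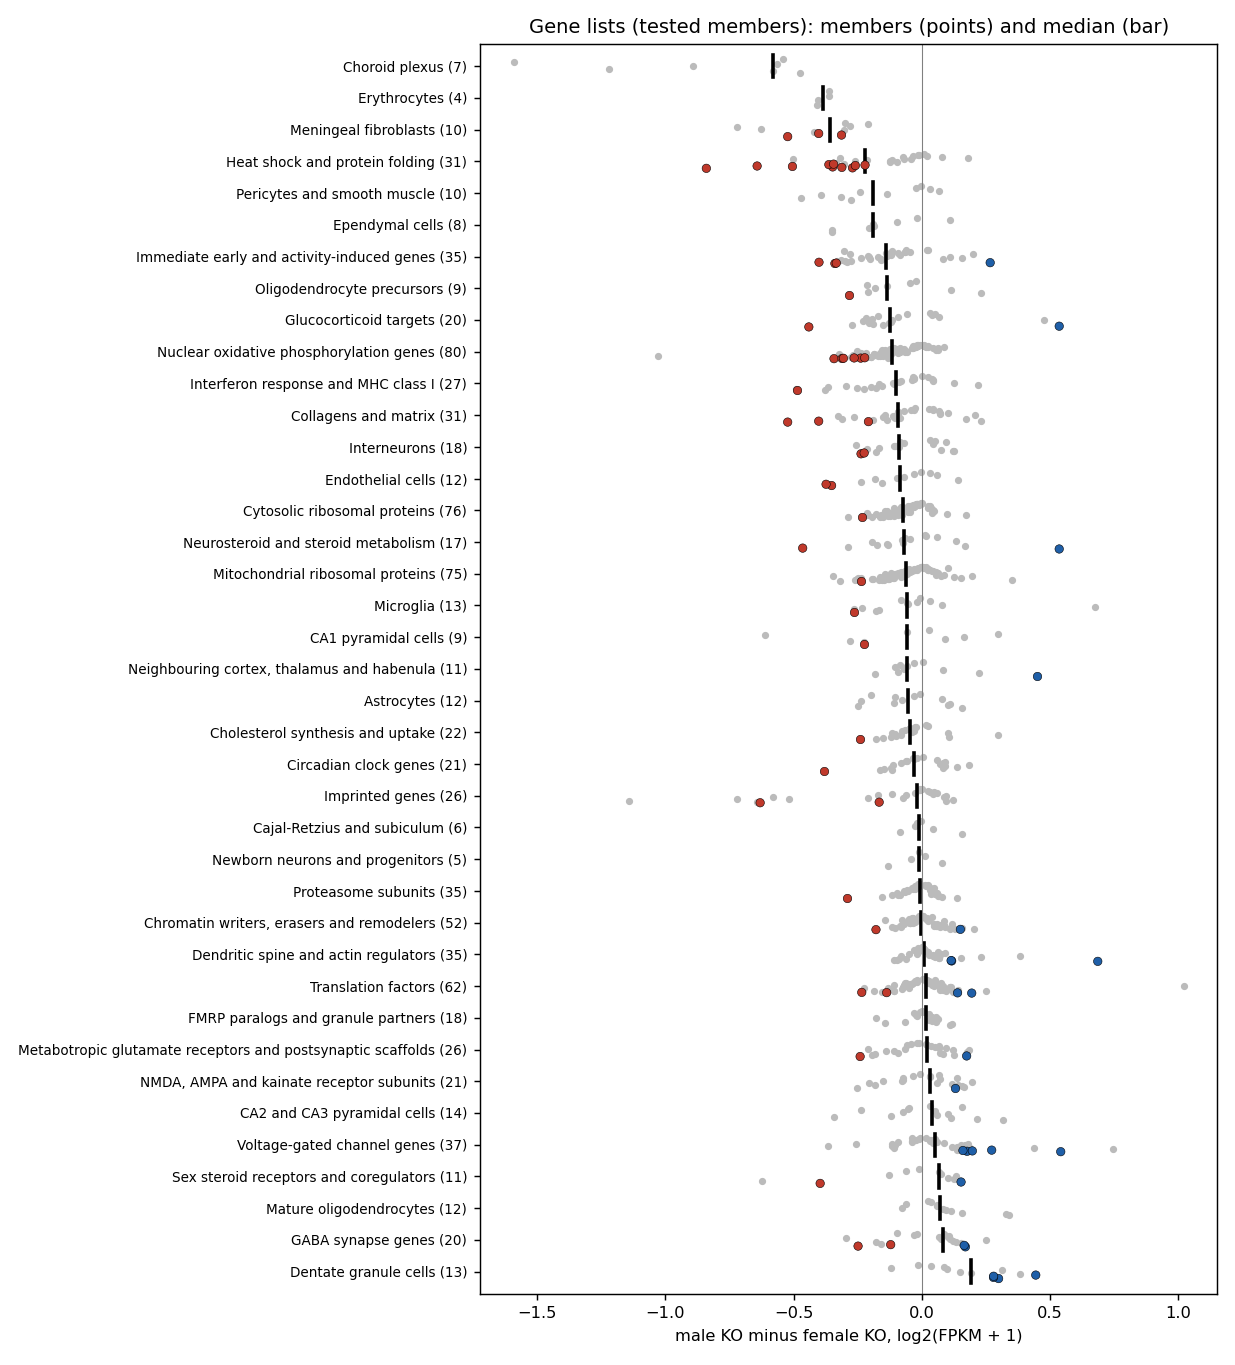
Gene lists in KO. Each row is a list with at least 4 tested autosomal members (number in brackets); points are members, placed by the male KO minus female KO difference in log2(FPKM + 1), coloured where they passed the threshold (blue higher, red lower), and bars are medians. Folding genes have 10 members past the threshold, all lower, and dentate granule markers 4, all higher.

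Of 37 voltage-gated and inward-rectifier channel genes, 5 were higher in male KO and 0 lower, against 2.27% and 3.27% of all tested genes (list median 0.05, or 0.07 with the GC trend removed; WT median -0.013). Besides Kcnj2 these were the sodium channel gene Scn3a, the R-type calcium channel gene Cacna1e and the potassium channel genes Kcnd2 and Kcna4, which shape A-type currents. Scn3a was at 7.32 to 7.88 FPKM in male KO and 6.17 to 6.69 FPKM in female KO (0.18 ± 0.04, adjusted p = 0.013), and Cacna1e at 18.4 to 20.7 FPKM in male KO and 16.4 to 17.7 FPKM in female KO (0.20 ± 0.05, adjusted p = 0.0254). Kcnd2 had 0.16 (adjusted p = 0.0273) and Kcna4 0.27 (adjusted p = 0.033). With the GC trend removed, and equally without the Ttr or the Prl libraries, Kcnj2 was the one call left. Without single KO libraries 2 to 6 of these genes passed.

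In the GABA synapse list, 2 of 20 genes were higher in male KO and 2 lower (20%, against 5.54% of all tested genes). With the GC trend removed 1 was higher and 1 lower, and 0 passed without the Ttr libraries or without the Prl libraries (limma). Gphn, or gephyrin, the scaffold of inhibitory synapses, stood at 19.8, 19.5, 19.4, 18.97 and 19.1 FPKM in male KO and at 18.03, 17.3, 17.3, 16.4 and 16.3 FPKM in female KO. Values were tight and separate, and both WT groups averaged 19.3 FPKM (KO difference 0.17 ± 0.03, adjusted p = 0.00485; 0.0197 with the GC trend removed). Gabra2, a receptor subunit gene, was lower in male KO, at 15.01 to 19.6 FPKM, against 20.9 to 23.2 FPKM in female KO (-0.25, adjusted p = 0.0236; -0.34 and 0.00333 with the GC trend removed), but not without female KO replicate 3 or 5, where its differences were within -0.27 to -0.18. With upper-quartile rescaling the split was 4 higher and 1 lower. Of 21 ionotropic glutamate receptor genes, Gria2, which makes AMPA receptors impermeable to calcium, was higher (0.13, adjusted p = 0.0486), and of 26 metabotropic receptor and scaffold genes, Shank1 was lower (-0.24, adjusted p = 0.0327) and Nlgn1, or neuroligin-1, higher (0.18, adjusted p = 0.0452). Of 35 spine and actin genes 3 were higher: Abi2 and, by 0.12 and 0.11, Nckap1 and Actr2, all of the machinery that branches actin. None of these last 6 passed with the GC trend removed, without the Ttr libraries or without the Prl libraries. Of the 10 fits without 1 KO library, Gria2 passed in 1, Shank1 in 4, Nlgn1 in 0, Abi2 in 3, Nckap1 in 2 and Actr2 in 0. Their lists had 4.76%, 7.69% and 8.57% of members past the threshold (ionotropic receptors, metabotropic receptors and scaffolds, spine and actin genes), against 5.54% of all tested genes. Of 18 FMRP paralogs and partners 0 passed (limma), and Purb, with the smallest p, had 0.11 (adjusted p = 0.0569).

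Nuclear genes of oxidative phosphorylation were lower in 6 of 80 cases (7.5%, against 3.27% of all tested genes) and higher in 0. Below 0 were 67 of the 80, against 53.4% of all tested genes (list median -0.12, or -0.11 with the GC trend removed; WT median -0.083). The cytochrome c1 gene Cyc1, of complex III, was at 64.0, 63.9, 66.3, 64.7 and 69.7 FPKM in male KO and at 82.3, 84.3, 80.6, 85.0 and 85.5 FPKM in female KO. The ranges were separate, at -0.34 ± 0.05 (SE; adjusted p = 0.00292), and -0.22 (adjusted p = 0.00702) with the GC trend removed, but it did not pass without the Prl libraries. Cox8a of complex IV had -0.31 (adjusted p = 0.0178) and Ndufa2 of complex I -0.31 (adjusted p = 0.0254); both missed the threshold with the GC trend removed. Atp5g1 (-0.24, adjusted p = 0.027) passed there too, while 1 gene of the list passed without the Ttr libraries and 0 without the Prl libraries, and 1 to 7 without single KO libraries. The element of the Esrra receptor family, TCAAGGTCA, was searched in the promoters with the same limits as the other motifs. It was found for 2 of 65 listed genes with a promoter and for 0 of the 3 lower ones with a promoter. Among all tested genes it was found for 40 of 9868 (0.405%). Cytosolic ribosomal protein genes had 65 of 76 below 0 (median -0.073, or -0.062 with the GC trend removed; WT median -0.055). Of these Rps16 alone passed (-0.23, adjusted p = 0.0499), which is 1.32% against 3.27% of all tested genes. It passed in 1 of the 10 fits without 1 KO library, and neither with upper-quartile rescaling nor with the GC trend removed.

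Immediate early genes, which follow neuronal firing, had 3 lower and 1 higher of 35, against 3.27% and 2.27% of all tested genes (list median -0.14, or -0.11 with the GC trend removed; WT median -0.034). Dusp5, a phosphatase of ERK, was at 5.99 to 7.05 FPKM in male KO and 7.51 to 9.18 FPKM in female KO (-0.34 ± 0.06, adjusted p = 0.00778), and Jund, an AP-1 subunit, at 34.6 to 38.6 FPKM in male KO and 45.5 to 47.8 FPKM in female KO (-0.33 ± 0.06, adjusted p = 0.00936). Gadd45g had -0.40 (adjusted p = 0.0261), and Ptgs2, the inducible cyclooxygenase, was higher (0.27, adjusted p = 0.0254). Dusp5 alone passed with the GC trend removed (adjusted p = 0.0438), and 0 of the list passed without the Prl libraries (limma). Fos had -0.14 (adjusted p = 0.561) and Arc -0.32 (adjusted p = 0.102).

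Steroid genes differed in single members. In the list of sex steroid receptors and coregulators, 11 autosomal genes were tested, and Ncor1, a nuclear corepressor, was higher in male KO (0.15, adjusted p = 0.027) beside Esrra, which was lower. In neurosteroid metabolism 2 of 17 differed: Hsd11b1 was higher, and Tspo, a cholesterol-binding protein of the outer mitochondrial membrane, was lower (-0.46, adjusted p = 0.0422). Ncor1, Hsd11b1 and Tspo did not pass with the GC trend removed. Of 26 imprinted genes 2 differed, Nnat and Blcap. Past the threshold were 18.2% of sex steroid receptors and coregulators, 11.8% of neurosteroid genes and 7.69% of imprinted genes. Over all tested genes the share was 5.54%, and each of these lists rested on 2 genes.

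The called genes were spread over all 19 autosomes, from 4.0% of tested genes on chromosome 3 to 7.27% on chromosome 2. One run of neighbours with a shared direction was found, on chromosome 3 between 80681450 and 82074689 (mm10). There 4 of 6 tested genes were higher in male KO, against 2.27% of all tested genes. A run had to hold at least 4 such calls and to start and end on one, so its share is a description. The genes were Gria2 (0.13), the glycine receptor gene Glrb (0.10), Tdo2 (0.30) and Gucy1b3, a subunit of soluble guanylate cyclase (0.15). Of the 10 fits without 1 KO library, Gria2 passed in 1, Glrb in 1, Tdo2 in 10 and Gucy1b3 in 3. With the GC trend removed 0 of the 4 passed (limma; adjusted p = 0.109 to 0.729).

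In WT the same contrast gave 6 autosomal genes past the threshold (0.0482% of those tested; limma), and 1273 had an unadjusted p under 0.05 (10.2%). Adjusted over autosomal genes alone, 0 passed in WT. Ccdc88a, which encodes the actin-binding protein girdin, was the one gene that passed in both genotypes, at 19.7 ± 1.02 FPKM in male KO and 17.5 ± 0.424 FPKM in female KO (0.16, adjusted p = 0.0336), and at 22.2 ± 1.402 FPKM in male WT and 18.2 ± 0.763 FPKM in female WT (SD, n = 5 each; 0.27, adjusted p = 0.00915). Of the 6, 5 were higher in males (0.0402%) and 1 lower (0.00804%). Besides Ccdc88a they were Acta1, the actin of skeletal muscle (0.54), Ola1 (0.14), Habp4 (0.22) and Ankrd12 (0.26), higher in male WT, and Nat8f5 (-0.65), lower. The WT libraries entered the KO calls through the shared estimate of spread, and not through the difference itself. In a fit of the KO libraries alone 675 genes passed, of which 487 were among the 689. Of the 689 KO calls, 540 (78.4%) had the same sign in WT, against 61.4% of all tested genes, and 138 had it with an unadjusted p under 0.05. With the GC trend removed from both contrasts, 67 of the 102 shared calls (65.7%) had the same sign, against 55.9% of all genes. The difference was smaller in WT than in KO for 678 of the 689, which were called in KO for their size there.

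**Figure D5:**
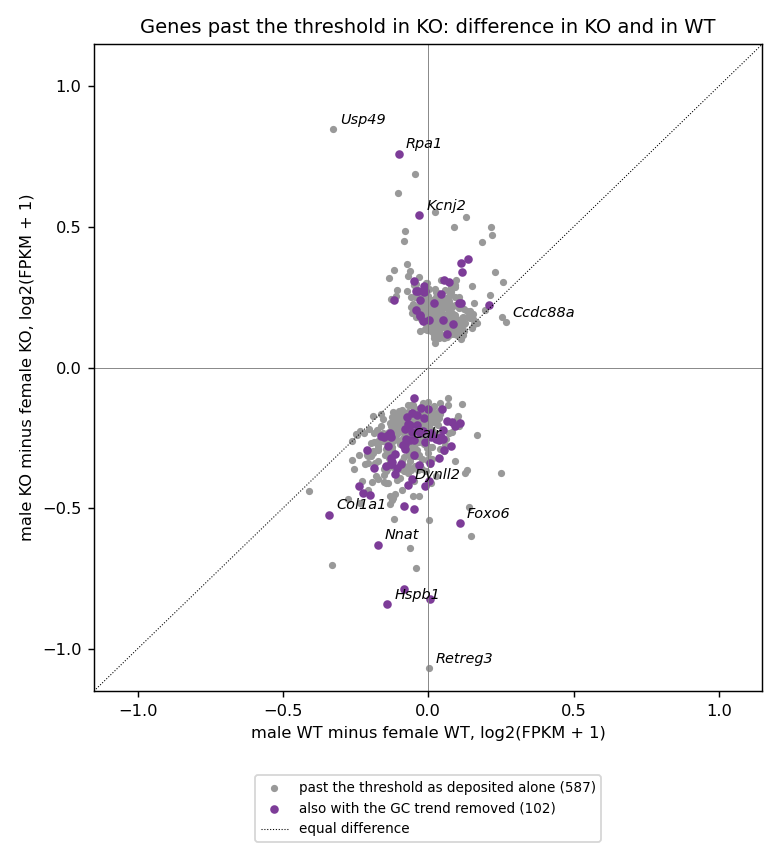
The difference between the sexes in KO and in WT, for the 689 genes past the threshold in KO. Each point is a gene, with the male WT minus female WT difference on the x axis and the male KO minus female KO difference on the y axis, in log2(FPKM + 1). The median size is 0.063 in WT and 0.23 in KO, and 540 genes have the same sign on both axes.

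Whether the sex difference itself differed between genotypes was tested as an interaction, and 0 of the 12443 genes passed (limma; 1256, or 10.1%, had an unadjusted p under 0.05). The 5 genes with the smallest p were Foxo6 (-0.66, adjusted p = 0.099), the F-box gene Fbxl14 (-0.31), Emc1 of the membrane insertion complex (-0.24), Rpa1 (0.86, adjusted p = 0.116) and Dynll2 (-0.35, adjusted p = 0.129). For Hspb1 the interaction was -0.70 (adjusted p = 0.222), for Kcnj2 0.57 (adjusted p = 0.222), for Esrra -0.34 (adjusted p = 0.222) and for Calr -0.19 (adjusted p = 0.283). Without male WT replicate 3, the one library of that group at the lower level of Rpa1, 3 genes passed: Rpa1 (0.70), Dynll2 (-0.39) and Acta1 (-0.67).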

How the data were processed

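Hippocampal RNA of 20 samples was sequenced with a SMARTER mRNA kit from 1.3 µg of TRIzol-extracted RNA, per the labels' protocols. The authors deposited FPKM per gene, per the file headers. FastQC, HISAT2, StringTie and the build mm10 are named in the submitters' processing notes. The sources used here do not give versions, annotation or strand setting. Depth and counting error cannot be had from FPKM.

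Groups and replicate numbers came from sample titles. Values were fitted as log2(FPKM + 1) with limma 3.58.1 (R 4.3.3, limma-trend, 4 group means over all 20 libraries), with Benjamini-Hochberg adjustment over all 12927 tested genes of all chromosomes and a threshold of 0.05. Differences are male minus female on that scale, which understates changes of low genes. Fits were tested on simulated data with independent noise in each gene. The simulation held no GC trend and no RNA of neighbouring tissue, so it says nothing on those. The GC trend was a loess (span 0.5, degree 1) on GC content of the longest GENCODE M21 transcript, taken out of each library. The alternatives were upper-quartile rescaling, other filters and pseudocounts, library weights, robust fits, compared libraries alone, a replicate block, Ttr and Prl as covariates, and leaving out libraries. GC trend removal combined with covariates, block or rescaling was added after seeing the data.

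Same-numbered KO libraries did not deviate together (r = -0.104 to 0.058). Members, lists and rules were chosen with earlier results of these data known. Named were the 15 largest differences each way (plain symbol, a group mean of at least 1 FPKM), up to 3 members per list with the smallest p, runs of at least 4 neighbouring calls, and the 5 smallest p in WT and in the interaction; other names were chosen after their values were seen. Overlapping or near-identical genes can share reads. Values of some genes are not reported here.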

Additional observations from a re-analysis of the deposited data

Results flagged for a closer look

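Of 60 groups of 5 KO values for the 30 genes with the largest differences, 8 held 1 library far from the other 4 by Dixon's ratio (over 0.71), where chance gives about 1 in 20 groups. In male KO, Hsd11b1 was at 5.74 FPKM in replicate 4 (8.31 to 8.86 in the others), Nolc1 at 10.51 FPKM in replicate 3 (14.3 to 15.7), Prkcd at 3.64 FPKM in replicate 2 (2.42 to 2.75), Hist2h3c1 at 0.542 FPKM in replicate 5 (0.719 to 0.778) and Nnat at 39.7 FPKM in replicate 5 (35.2 to 35.9). In female KO, Usp49 was at 1.80 FPKM in replicate 4 (0.408 to 0.416 in the others), Hsd11b1 at 7.80 FPKM in replicate 4 (4.37 to 4.76) and Abi2 at 6.69 FPKM in replicate 1 (4.24 to 4.71). Female KO replicate 4 lay within the male KO range for Usp49 (1.59 to 2.24 FPKM) and for Hsd11b1 (5.74 to 8.86 FPKM).

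Prl, which stayed under the filter on level and was used to leave out libraries and as a covariate, was at 4.63, 42.2 and 22.1 FPKM in female KO replicates 2, 3 and 4. It was at 0.147 FPKM or less in every male KO library, at 0.0833 FPKM or less in male WT and at 1.68 FPKM or less in female WT.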

How the results depend on the processing

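The count of 689 genes in KO became 119 with the GC trend removed, 62 without the Ttr libraries, 17 without the Prl libraries and 69 with Ttr and Prl as covariates. The GC trend removed together with covariates gave 19, with the replicate block 40 and with upper-quartile rescaling 86. Leaving out single KO libraries gave 158 to 665. Of the 689, 131 (41 higher, 90 lower) passed in each of these 10 fits, and 64 of them also with the GC trend removed. The replicate block alone gave 487 calls in KO, of which 447 were among the 689, and 2 in WT; replicate numbers were not found to pair the samples, and only male replicate 5 correlated best with the female of its number. The 6 calls in WT became 13 with no filter, 1 in a fit of the compared libraries alone, 1 without the Prl libraries, 0 adjusted over autosomal genes, 3 with the GC trend removed and covariates, 2 with the GC trend removed and the block, and 2 to 7 without single WT libraries. The 0 interaction calls became 7 with no filter (Ckm, Atp2a1, Myh4 and Tnnc2 of skeletal muscle, Foxo6, Fbxl14 and Emc1), 1 without the Ttr libraries (Hist2h3c1, -1.23) and 0 to 3 without single libraries. Of 78 named genes past the threshold in KO, 21 kept the call in every fit without 1 library; over all alternatives these genes kept it in 1137 fits and lost it with the same sign in 884, and in no fit did a called difference reverse. The cause of these changes was not tested. Read depth is unknown, and 5 libraries per group limit what can be called.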

Other observations

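Markers of other hippocampal cells differed in few members between the sexes in KO. Over all tested genes, 3.27% passed the threshold as lower and 2.27% as higher, and 5802 of 12443 lay above 0. Of 18 interneuron genes 2 were lower in male KO: the peptide gene Sst, at 237 to 299 FPKM in male KO and 297 to 340 FPKM in female KO (-0.22, adjusted p = 0.0458), and Cck (-0.24, adjusted p = 0.0444). In the CA1 list, Fibcd1 was lower (-0.23, adjusted p = 0.0336) out of 9 genes. Olig1, the one call among 9 genes of oligodendrocyte precursors, was at 26.5 to 28.3 FPKM in male KO and 32.1 to 34.7 FPKM in female KO (-0.28, adjusted p = 0.0254). Mature oligodendrocyte genes lay above 0 in 10 of 12 cases (median 0.073), with none past the threshold (limma) and Opalin closest (0.34, adjusted p = 0.0565). C1qc, a complement gene and the one call among 13 microglial genes, was lower (-0.26, adjusted p = 0.0423). Of 12 endothelial genes 2 were lower: Cldn5, the tight junction protein of brain endothelium (-0.35, adjusted p = 0.0327), and Mfsd2a, its lipid transporter (-0.37, adjusted p = 0.0473). Mfsd2a had the opposite sign in WT (0.25, adjusted p = 0.434). None of the 7 genes past the threshold here passed with the GC trend removed (adjusted p = 0.13 to 0.216).

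Single members of regulatory lists also differed. Srebf2, the sterol-sensing transcription factor, was at 20.8 to 22.9 FPKM in male KO and 24.4 to 28.2 FPKM in female KO (-0.24, adjusted p = 0.0152), the proteasome gene Psmb5 had -0.29 (adjusted p = 0.0198), the clock-linked repressor Nfil3 -0.38 (adjusted p = 0.0229) and Ddit4, an mTOR inhibitor induced by glucocorticoids, -0.44 (adjusted p = 0.0365). Of 62 translation factors, Eif2a (0.20, adjusted p = 0.0163) and Eif3a (0.14, adjusted p = 0.0178) were higher in male KO, and Eif4ebp2 (-0.14, adjusted p = 0.0293) and Eif5a (-0.23, adjusted p = 0.0457) lower (6.45% of the list, against 5.54% of all tested genes). Eif3a had the same difference in WT (0.15, adjusted p = 0.0697). Of 52 chromatin genes, Hdac5 was lower (-0.18, adjusted p = 0.0305) and Nsd1 higher (0.15, adjusted p = 0.0468), a share of 3.85%. None of these 10 genes passed with the GC trend removed.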
